A study of Mus musculus with 3 samples.

Results

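The genes that end the rod light response and reset the cell by calcium feedback were followed in the neural retina of Rp1 knockout mice. The set comprised 10 genes, chosen by symbol: Sag, Rcvrn, Grk1, Rgs9, Pdc, Guca1a, Guca1b, Gucy2e, Gucy2f and Slc24a1. Of these, 6 had a probe set of their own among the 8251 genes that the array's platform annotation names by a single symbol. Sag, Rcvrn, Rgs9, Guca1a and Gucy2e had 1 probe set each and Pdc had 2, which gave 7 probe sets in all. Grk1 (rhodopsin kinase), Guca1b, Gucy2f and Slc24a1 had no probe set under their symbol in that annotation and were not measured.

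The series held 3 one-colour arrays, 1 for each pool of neural retinas, on the U74Av2 design named in the sample titles. All 3 pools came from Rp1-/- mice of mixed 129/SvEv and C57BL/6 ancestry at postnatal day 21, with 3 to 4 mice in a pool and retinas taken between 1 and 2 pm. Every pool thus carried the same knockout, no wild-type or other control group was analysed here, and the design allows no test of a condition. The pools are named replicates 1 to 3 without any order, and the spread between them may be biological or technical. Rp1, whose protein binds microtubules in the axoneme of rods and cones, had no probe set under its symbol, so the knockout was not checked on these arrays.

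In a lit rod, activated rhodopsin switches on transducin, transducin switches on phosphodiesterase, cGMP falls and the cation channels of the outer segment close. The response ends when rhodopsin kinase phosphorylates rhodopsin, arrestin binds it, and the Rgs9 complex makes transducin hydrolyse its GTP. Calcium falls while the channels are closed because the exchanger Slc24a1 goes on extruding it, and the low calcium frees rhodopsin kinase from recoverin and lets the guanylyl cyclase activating proteins stimulate cyclase, which restores cGMP.

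The promoters of the 5 measured genes that had an entry are shown. Rcvrn and Guca1b had no entry. Of the 10 genes, 8 had an entry among the RefSeq promoters of build GRCm38.p6, each 300 bases long with 250 before and 50 after the annotated start. Capitals mark TAATCC or its reverse complement GGATTA, the core recognised by the photoreceptor factor CRX, and CAATTAG or its reverse complement CTAATTG, the photoreceptor element PCE1. All sequences run 5′ to 3′ on the strand of the gene.
Sag: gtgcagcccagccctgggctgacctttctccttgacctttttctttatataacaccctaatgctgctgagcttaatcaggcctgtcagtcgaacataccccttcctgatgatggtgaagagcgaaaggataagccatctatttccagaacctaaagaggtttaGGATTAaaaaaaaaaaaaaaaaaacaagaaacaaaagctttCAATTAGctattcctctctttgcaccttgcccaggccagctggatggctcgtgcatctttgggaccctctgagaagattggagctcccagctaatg
Guca1a: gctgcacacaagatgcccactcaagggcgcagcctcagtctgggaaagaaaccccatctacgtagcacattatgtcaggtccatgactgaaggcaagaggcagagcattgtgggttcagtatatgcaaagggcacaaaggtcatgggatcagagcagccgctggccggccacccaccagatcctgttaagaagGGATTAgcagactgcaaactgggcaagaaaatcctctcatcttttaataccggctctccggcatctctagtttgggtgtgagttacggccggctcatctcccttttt
Gucy2e: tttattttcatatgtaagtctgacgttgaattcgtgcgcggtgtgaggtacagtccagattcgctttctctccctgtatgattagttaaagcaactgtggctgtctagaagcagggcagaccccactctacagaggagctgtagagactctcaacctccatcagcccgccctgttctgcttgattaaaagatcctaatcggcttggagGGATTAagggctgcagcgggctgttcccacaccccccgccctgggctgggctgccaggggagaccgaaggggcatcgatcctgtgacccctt
Pdc: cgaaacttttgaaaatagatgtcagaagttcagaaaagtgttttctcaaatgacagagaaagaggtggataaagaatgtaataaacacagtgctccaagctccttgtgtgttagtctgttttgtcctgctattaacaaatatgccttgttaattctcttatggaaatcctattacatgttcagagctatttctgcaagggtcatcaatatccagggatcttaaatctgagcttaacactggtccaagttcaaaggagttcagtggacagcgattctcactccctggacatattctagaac
Rgs9: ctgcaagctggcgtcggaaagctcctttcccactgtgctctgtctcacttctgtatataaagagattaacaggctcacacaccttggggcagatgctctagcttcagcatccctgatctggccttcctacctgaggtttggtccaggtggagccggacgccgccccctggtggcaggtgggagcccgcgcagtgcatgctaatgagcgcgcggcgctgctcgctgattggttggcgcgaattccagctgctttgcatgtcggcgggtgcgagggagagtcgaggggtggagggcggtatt
These windows lie at chr1:87803430-87803729 (plus strand) for Sag, chr17:47400557-47400856 (minus strand) for Guca1a, chr11:69236973-69237272 (minus strand) for Gucy2e, chr1:150319167-150319466 (plus strand) for Pdc and chr11:109298132-109298431 (minus strand) for Rgs9.

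The CRX core was present in 3 of the 5 promoters printed, those of Sag, Guca1a and Gucy2e, and in 4 of the 8 with Gucy2f included. Of all 32851 promoters of the same length 7.06% held it on either strand. In Sag it began at base 164 of the window, in Guca1a at base 194 and in Gucy2e at base 209, each time on the reverse strand. The PCE1 letters were found in Sag alone among the 8, at base 205, clear of the CRX core, and in 1.98% of all promoters. A match describes letters only. Any link between these letters and the order of the pools was not tested.

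Signals are given as scaled array units, that is the deposited intensities after a single factor per array that equalises the 2% trimmed mean. A probe set was called above background on an array when it exceeded the 95th percentile of 19 probe sets against bacterial and yeast transcripts, at 160.3, 80.7 and 107.1 units in replicates 1, 2 and 3. By this rule 6 of the 6 measured genes were above background on all 3 arrays, where 60.7% of all genes were. The second Pdc probe set was not. The levels of different genes are not ranked, since each probe set responds with a strength of its own. In RNA from whole retina, fewer cells of a type and less RNA per cell cannot be told apart.

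Arrestin binds rhodopsin, and recoverin acts on the kinase that phosphorylates it. Sag, the rod arrestin that caps phosphorylated rhodopsin, had signals of 26850.1, 40009 and 26141 in replicates 1, 2 and 3. Replicate 2 was high, and replicates 1 and 3 lay close together. The mean was 31000.0 ± 7809.7 (SD, n = 3), with a 1.53-fold range over the pools.

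Rcvrn, the calcium sensor that holds rhodopsin kinase inactive in the dark, had signals of 6557, 8143 and 5083 in replicates 1, 2 and 3. It was highest in replicate 2 and lowest in replicate 3, with replicate 1 in between. The mean was 6594 ± 1531 (SD, n = 3) and the range 1.60-fold. Arrestin and recoverin thus had the narrowest spread of the 6 measured genes, each with an SD of 0.34 on the log2 scale. Over the 5006 genes above background on all 3 arrays the median SD was 0.36.

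Phosducin and Rgs9 act on transducin. Pdc, which binds the beta and gamma subunits of transducin, had signals of 18902, 30822 and 17976 in replicates 1, 2 and 3 at its main probe set. As for arrestin, replicate 2 stood above replicates 1 and 3, which were close. The mean was 22567 ± 7164 (SD, n = 3) and the range 1.71-fold. The second Pdc probe set, whose suffix marks a design that did not meet all selection rules, gave 56.2, 113 and 131. It was below the background limit in replicate 1 and just above it in the others, and its order of pools differed from that of the main probe set. No fold is given for it, because the limit in replicate 1 exceeded its signal in every pool.

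Rgs9 encodes the GTPase-activating protein that switches transducin off, and a longer splice form serves the striatum. Which form the probe set reads is not stated in the annotation used. It had signals of 365, 164 and 126 in replicates 1, 2 and 3, with a mean of 218 ± 128 (SD, n = 3). Replicate 1 stood apart and replicates 2 and 3 lay near each other. The range of 2.88-fold was the widest among the 6 genes. It was also the gene nearest to background, at 2.28, 2.03 and 1.18 times the limit of its array, so that in units of that limit replicates 1 and 2 were close.

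Guanylyl cyclases and their activators restore cGMP. Guca1a, the calcium-binding protein GCAP1 that stimulates cyclase when calcium is low, had signals of 5644, 12943 and 9257 in replicates 1, 2 and 3. The pools were well separated, with replicate 1 lowest and replicate 2 highest. The mean was 9281 ± 3649.6 (SD, n = 3) and the range 2.29-fold.

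Gucy2e, a retinal guanylyl cyclase of mouse photoreceptors, had signals of 524, 306 and 485 in replicates 1, 2 and 3. Replicate 2 was low and the other pools were close, whereas replicate 2 was the highest pool for Sag and Pdc. The mean was 438 ± 116 (SD, n = 3) and the range 1.71-fold. Relative to the background limit of each array the signal was 3.27, 3.80 and 4.53, and on that scale replicate 3, not replicate 1, was highest.

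**Figure D1:**
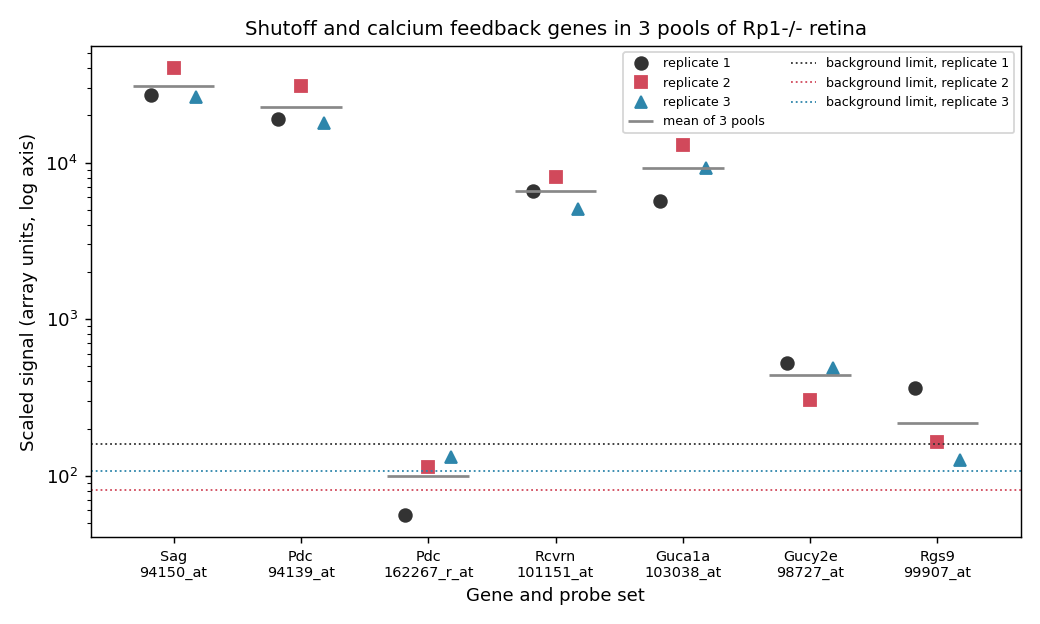
Scaled signal (array units, log axis) of each probe set of the shutoff and calcium feedback genes in the 3 pools of Rp1-/- retina, with the mean as a grey bar and the background limit of each array as a dotted line. Sag, Pdc, Rcvrn and Guca1a peak in replicate 2, Gucy2e is lowest there, Rgs9 is highest in replicate 1, and the second Pdc probe set straddles the limits.

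The genes thus fell into different orders. Replicate 2 held the highest signal for 4 of 6 genes (Sag, Rcvrn, Pdc and Guca1a), against 33.0% of all genes above background, and replicate 1 for Rgs9 and Gucy2e, against 42.6%. Replicate 3 was highest for 0 of 6 genes, against 24.4%. Replicate 3 held the lowest signal for 4 of 6 genes (Sag, Rcvrn, Pdc and Rgs9), against 31.6% of all genes. For Sag, Pdc and Rgs9 the lowest pool depended on the array scaling, as given below. Guca1a was lowest in replicate 1 and Gucy2e in replicate 2, where 36.0% and 32.4% of all genes were lowest. With 6 genes these counts are read as a description of their order alone. A range of 2-fold or more was reached by 2 of 6 genes, Rgs9 and Guca1a, where 28.3% of all genes above background reached it. Without replicate 1 neither gene reached it (0 of 6, and 5.66% of all genes), and without replicate 2 only 1 of 6 did (17.8% of all genes). The median range of the 6 genes was 0.78 on the log2 scale, and that of all such genes was 0.69.

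The ratio of 2 genes on the same array does not depend on a factor common to that array. It does keep any difference between arrays that varies with signal level. Sag and Pdc kept the steadiest ratio of the 15 pairs, with an SD of 0.09 and a range of 0.16 on the log2 scale over the pools. Sag and Rcvrn followed with an SD of 0.17, and Rcvrn and Pdc with 0.20. Guca1a departed from Sag by an SD of 0.40, since its ratio to Sag was lower in replicate 1 than in the other pools. The widest ratio was that of Rgs9 to Guca1a, at 1.53, -0.82 and -0.71 from its own mean in replicates 1, 2 and 3 (log2), an SD of 1.33. Arrestin and phosducin therefore moved together across the pools more closely than any other pair of the 6 genes, and both had means above 10000 units. Among all genes above background with means below 500 units, as for Rgs9, the median deviations were 0.25, -0.18 and -0.06 (log2) in replicates 1, 2 and 3. Between 5000 and 10000 units, the level of Guca1a, they were -0.32, 0.34 and 0.01. The part of this level trend in the ratios was not tested.

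The arrays also differed by signal level, over all genes. Among the 38 genes with a mean of 10000 units or more, 92.1% were highest in replicate 2, and among the 94 genes between 5000 and 10000 units 84.0% were. Among the 1954 genes below 500 units, 58.9% were highest in replicate 1 and 18.5% in replicate 2. The 4 genes that peaked in replicate 2 had means above 5000 units and the 2 that peaked in replicate 1 had means below 500. All 9 probe sets of the bacterial and phage transcripts BioB, BioC, BioDn and CreX, which serve as hybridisation controls on such arrays and are not mouse genes, were also highest in replicate 2, by a median of 1.39-fold and between 1.05-fold and 1.67-fold over replicate 1. The part of this level trend in the order of the pools was not tested.

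Set against genes of the same level, the members differed in how far they departed. In replicates 1, 2 and 3, Sag lay at 0.05, 0.04 and -0.09 from the median deviation of its level (log2), and Pdc at 0.01, 0.14 and -0.16. Both thus stayed close to other bright genes in each pool. Rcvrn lay at 0.34, -0.01 and -0.36, and Guca1a at -0.31, 0.22 and 0.07, so these calcium sensors departed in opposite directions in replicate 1. Gucy2e lay at 0.05, -0.30 and 0.24. Rgs9 departed most, at 0.65, -0.08 and -0.58. The median SD of genes at the level of Rgs9 and Gucy2e was 0.44, against 0.36 at that of Rcvrn and Guca1a.

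**Figure D2:**
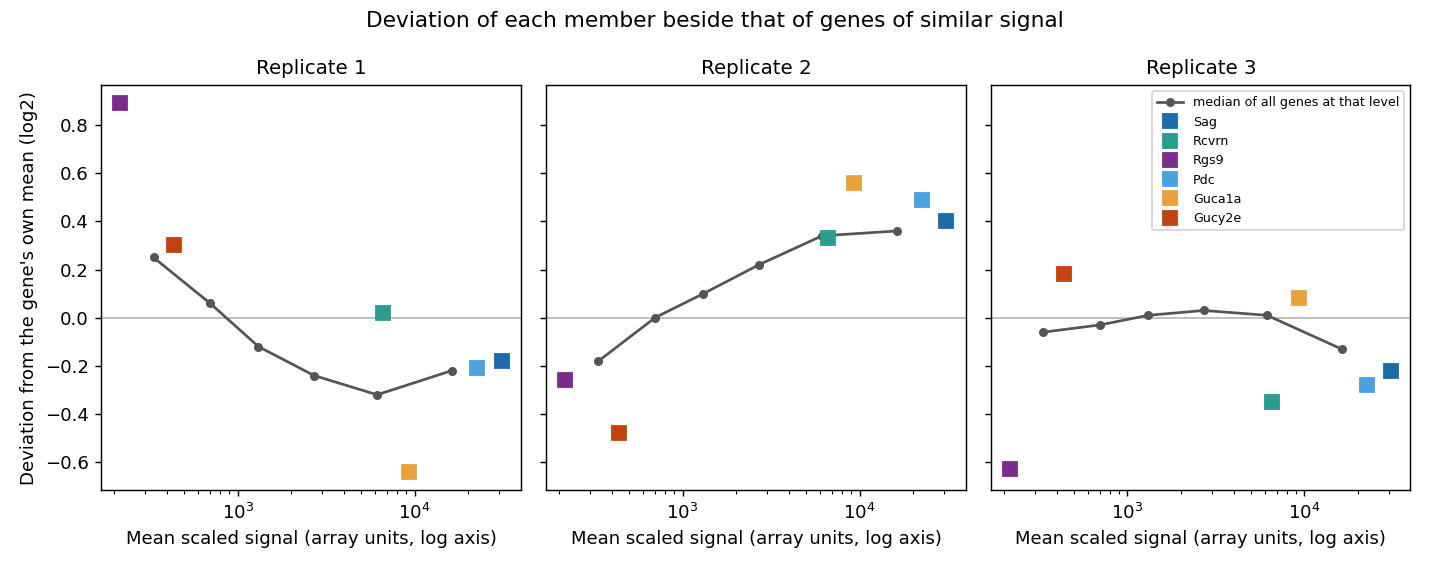
Deviation of each gene from its own mean (log2) against its mean scaled signal (array units, log axis), 1 panel per replicate. Squares are the 6 measured genes, and the grey line joins the median deviation of all genes above background in 6 ranges of signal, which lies at 0.25 for the dimmest and -0.22 for the brightest genes in replicate 1 and at -0.18 and 0.36 in replicate 2.

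The order of pools depended on how the arrays were brought to one scale, so the values under other scalings are given together. With the arrays brought to one median, the median signal of all probe sets moved by -0.22, 0.23 and 0.02 (log2) in replicates 1, 2 and 3. The 4 bright genes still peaked in replicate 2, and Gucy2e peaked in replicate 3. Sag and Pdc were then lowest in replicate 1, with ranges of 2.04-fold and 2.23-fold. Quantile normalization moved the median signal of all probe sets by the same amounts. Under it Sag did not vary at all, because it held rank 15 of the 12488 probe sets on every array, and Pdc ranged 1.22-fold. Rcvrn then peaked in replicate 1, and Gucy2e in replicate 3 as with a common median. Guca1a kept replicate 1 as its lowest and replicate 2 as its highest pool in all 4 scalings, with ranges between 1.53-fold and 3.13-fold. Rgs9 kept replicate 1 as its highest pool in all 4, with ranges between 2.44-fold and 3.10-fold. Scaled to the hybridisation controls, a choice made after the data were seen, Sag ranged 1.10-fold, Pdc 1.24-fold, Rcvrn 1.30-fold with its peak in replicate 1, and Gucy2e 2.39-fold. In that setting Rgs9 and Gucy2e were the 2 of 6 genes past 2-fold, where 39.2% of all genes were, and Guca1a ranged 1.64-fold. Rgs9 was then lowest in replicate 2.

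**Figure D3:**
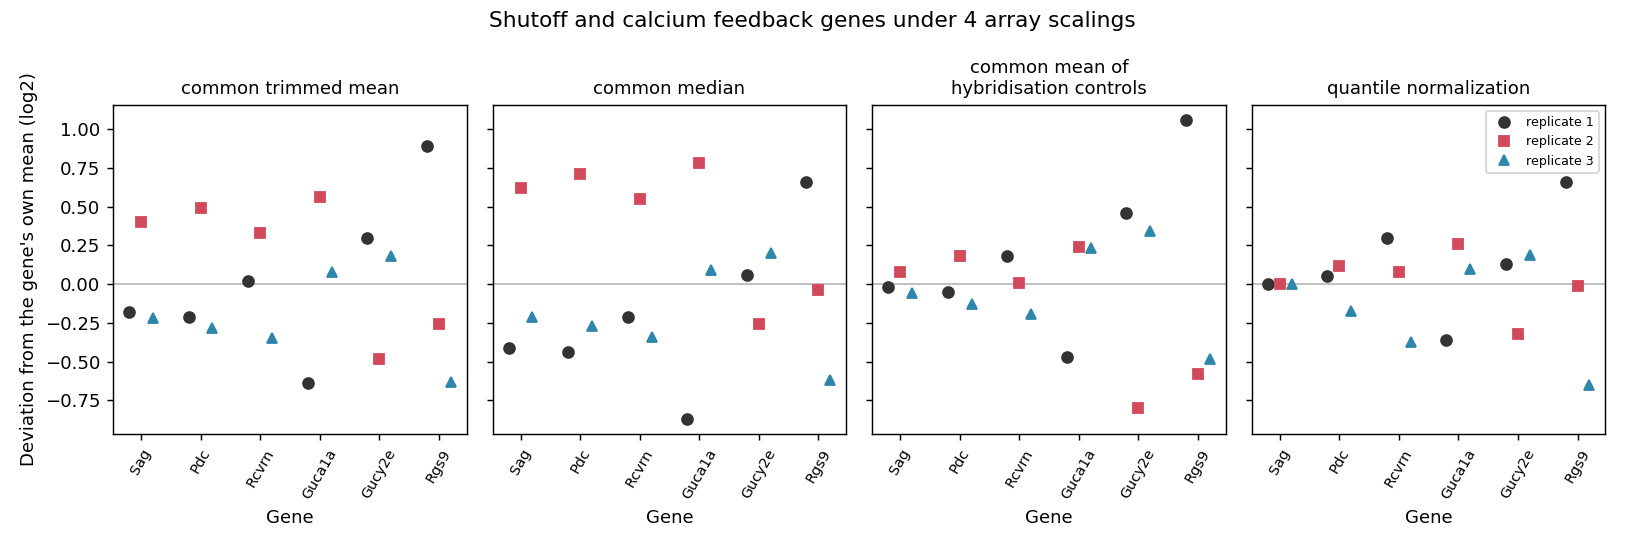
Deviation of each of the 6 measured genes from its own mean (log2) in the 3 replicates, in 1 panel per array scaling. Sag and Pdc lie nearer to 0 under the hybridisation controls than under the trimmed mean, Sag is flat under quantile normalization, and Rgs9 stays highest and Guca1a lowest in replicate 1 in every panel.

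Partners of these proteins were read from a list of 13 further shutoff and calcium feedback genes. Of these, 6 were measured and all 6 were above background on all 3 arrays, where 60.7% of all genes were. None of the 6 reached a 2-fold range, against the 28.3% of all genes. Highest in replicate 1 were 5 of them, against 42.6% of all genes. Of genes below 500 units, where Calm2 and Atp2b2 lay, 58.9% were. Between 1000 and 2000 units, where Ppef2 and Ppp2cb lay, 25.8% were. Between 2000 and 5000 units, where Gnb5 lay, 14.9% were. Gnb5 and Ppp2cb differed little between these pools, with replicate 2 at 0.99-fold and 0.982-fold of replicate 1. Gnb5, the beta subunit without which Rgs9 is unstable, had 2894, 2865 and 1737 in replicates 1, 2 and 3, lowest in replicate 3 as Rgs9 was. Ppef2, a calcium-binding protein phosphatase of photoreceptors, had 1779, 1206 and 1097. The catalytic subunits of protein phosphatase 2A, an enzyme that can remove phosphate from rhodopsin, gave 439.6, 630.3 and 478 for Ppp2ca and 1399, 1374 and 947 for Ppp2cb. Calm2, a calmodulin gene, had 432, 248 and 394, with replicate 2 lowest as in Gucy2e. Atp2b2, a plasma membrane calcium pump, had 356, 313 and 287 and the narrowest range, at 1.24-fold.

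The genes that switch the cascade on were read from a further list. Of 9 rod activation genes listed 6 were measured, all above background on all 3 arrays, where 60.7% of all genes were. A 2-fold range was reached by 2 of the 6, where 28.3% of all genes above background reached it. The median ratio of replicate 2 to replicate 1 was 1.45-fold for the 6 activation genes and 1.36-fold for the shutoff and feedback members. It was 0.929-fold for the partners and 0.965-fold for all genes above background. These lists differ in signal level, with means between 2536 and 39398 units in the activation genes and between 319 and 2498 in the partners, and the difference between them was not tested. Gnat1, the transducin alpha subunit that Rgs9 acts on, had 30806, 51739.9 and 35647 in replicates 1, 2 and 3. Gnb1, the transducin beta subunit that phosducin binds, was lowest in replicate 1 at each of its 3 probe sets, with 9934, 26613 and 27086 at the one used. Unlike Pdc, it was as high in replicate 3 as in replicate 2. Pde6a, a catalytic subunit of phosphodiesterase, had 1680, 2478 and 3452, with its peak in replicate 3. Pde6b, the other catalytic subunit, had 12399, 14881 and 9299.8, while its second probe set was flat at 1778, 1776 and 1602. The inhibitory subunit Pde6g had 20297, 28926 and 20637. Cnga1, the channel subunit through which calcium enters, had 3223, 3030.5 and 1972 and was the one gene of the 6 that peaked in replicate 1.

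Relatives of the members outside the rod cascade were measured for 17 of 27 genes listed. Of these, 11 were above background on all 3 arrays, where 60.7% of all genes were, and 3 on none. A 2-fold range was reached by 5 of the 11, where 28.3% of all genes above background reached it. Arrb1, a beta-arrestin of many tissues, had 517, 386 and 699 in replicates 1, 2 and 3, and 641, 318 and 405 at a second probe set, with replicate 2 lowest at both. The receptor kinases Grk5 and Grk6 were below background in replicate 1, at 67 and 119, and reached 230.4 and 531 in replicate 3, at least 1.44-fold and at least 3.31-fold higher than in replicate 1.

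The R7 group of RGS proteins, to which Rgs9 belongs and which all pair with Gnb5, did not share one order. Rgs7, which serves the ON bipolar cell together with Rgs11, had 426, 958 and 603 in replicates 1, 2 and 3. Rgs11 had 722, 1507 and 1389.9, and was below background on every array at a second probe set. Both were lowest in replicate 1, where Rgs9 was highest, and Rgs6 was below background on all arrays at 45.6 ± 12.4 (SD, n = 3). Rgs4, an RGS protein of another group, had 434, 344 and 209 and shared the order of Rgs9. Bipolar markers, Trpm1 and Pcp2 among them, were lowest in replicate 1 for 4 of 4 measured genes at the probe sets used, and 3 of the 4 were above background on all arrays, with sums of 1402, 2784 and 2853. Over all genes above background, 36.0% were lowest in replicate 1. A second Pcp2 probe set had 2067, 2692 and 1958, lowest in replicate 3. The part of bipolar RNA in the Rgs7 and Rgs11 values was not tested.

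Among neuronal calcium sensors, the family of recoverin and the GCAPs, Hpca (hippocalcin) had 1529, 1017 and 689.6 in replicates 1, 2 and 3 and a 2.22-fold range. Vsnl1 (visinin-like protein) had 1172, 2861 and 2234 and a 2.44-fold range. Hpca was thus highest and Vsnl1 lowest in replicate 1, and neither had the order of Rcvrn, while Vsnl1 had that of Guca1a.

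**Figure D4:**
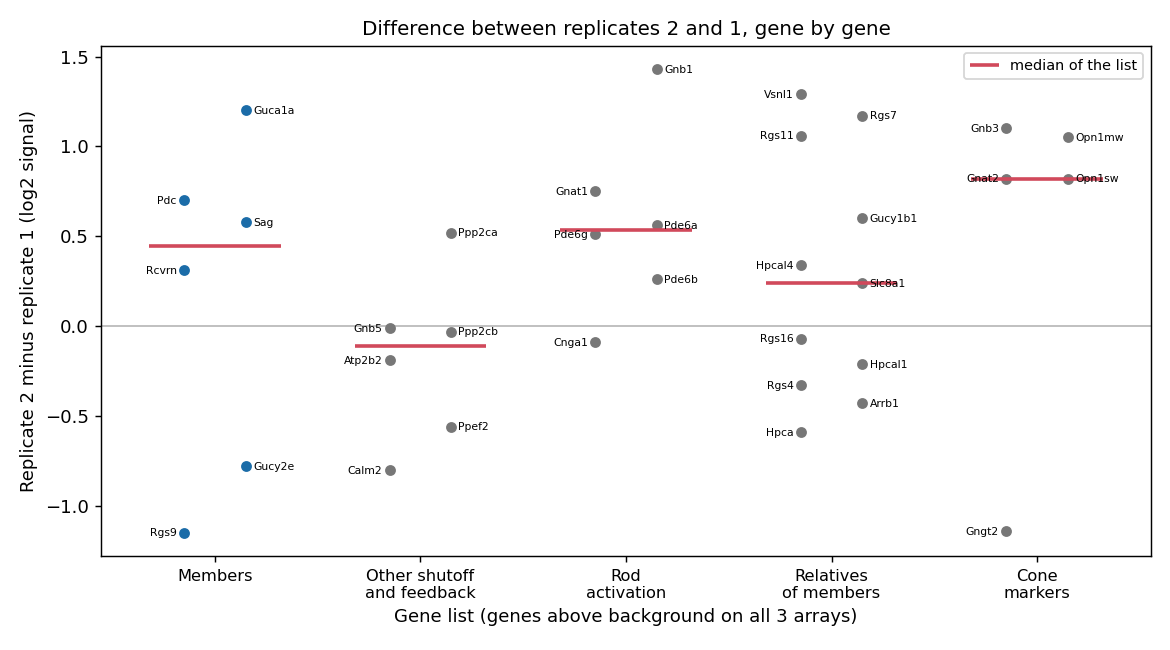
Replicate 2 minus replicate 1 (log2 signal) for each gene above background on all 3 arrays, in the 6 shutoff and calcium feedback members (blue) and 4 further lists (grey), with the list median in red. Every list has genes on both sides of 0. Among the members Sag, Rcvrn, Pdc and Guca1a lie above 0, with Guca1a highest and Rgs9 lowest. Above 0 lie 4 of 5 cone markers and 5 of 6 rod activation genes.

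Guca1a is used by cones as well as rods, and cone markers were set beside it. Of 6 measured cone genes, 4 were highest in replicate 2 and lowest in replicate 1, the order of Guca1a. Over all genes above background 33.0% were highest in replicate 2. At the levels of these 4 genes the share was 46.9% (1000 to 2000 units) and 60.6% (2000 to 5000 units). Genes outside the cone list had the same order, among them Vsnl1, Dct and Pmel. The summed signals of all 6 cone genes were 9081, 16522 and 12056 in replicates 1, 2 and 3. Replicate 2 stood over replicate 1 by 1.77-fold for Opn1sw and 2.07-fold for Opn1mw, the cone opsins, by 1.76-fold for Gnat2 and 2.15-fold for Gnb3, the cone transducin subunits, and by 2.29-fold for Guca1a. Gngt2, a cone transducin gamma subunit, had 675, 307 and 197, highest in replicate 1, and Cnga3 was below background on all arrays, at a mean of 50.4. The part of cone RNA in the Guca1a values was not tested.

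Genes listed as markers of pigmented cells, blood and lens also differed between the pools. Whether their signal came from the retina itself or from tissue next to it was not tested. Over all genes above background, 33.0% were highest in replicate 2 and 36.0% lowest in replicate 1. All 6 measured genes of pigmented cells, 3 of them above background on all arrays, were highest in replicate 2 and 5 were lowest in replicate 1, with sums of 2031, 12917 and 8368 in replicates 1, 2 and 3. Dct and Pmel, of melanin synthesis and the melanosome, had 765, 5724 and 3742 and 454, 4105 and 2609.5. Blood genes, 2 of 4 above background on all arrays, were highest in replicate 2 for 3 of 4, with sums of 5490.3, 31716 and 8254 that include Hba-a1, an alpha globin, and Hbb-b2, a beta globin. Lens genes, all 7 above background on all arrays, were highest there for 5 of 7, with sums of 128467, 189739 and 133972. They include Cryaa, Cryba1, Crygb and Crygs, crystallins with means above 10000 units, a level at which 92.1% of all genes were highest in replicate 2. No marker in these lists had a signal of 0. Their part in the values of Sag, Pdc, Rcvrn and Guca1a was not tested. Among the other retinal classes, 6 of 7 measured amacrine and horizontal markers (Gad1 but not Gad2) passed the background limit on each array. So did 5 of 5 ganglion markers (Nefl and Nefm among them) and 7 of 7 Müller markers (Glul and Rlbp1 among them). Some passed narrowly, such as Nefm at 1.09 times the limit in replicate 3. Over all genes 60.7% passed on each array, and all 7 lens genes did, so passing does not mark a tissue. At the probe sets used, 5 of 5 ganglion genes were highest in replicate 1, where Rgs9 and Gucy2e peaked, against 42.6% of all genes. That share was 58.9% below 500 units, where Nefm, Rgs9 and Gucy2e lay. It was 25.8% between 1000 and 2000 units, where the other ganglion genes lay. The sums of the ganglion genes were 7925, 6025 and 4865 in replicates 1, 2 and 3. Nefl ranged only 1.07-fold. A second probe set of the ganglion gene Sncg had 800.4, 1149 and 1719.7, lowest in replicate 1 and highest in replicate 3. The part of ganglion RNA in the Rgs9 and Gucy2e values was not tested.

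The median profile of the 6 genes, at -0.08, 0.36 and -0.25 from their own means in replicates 1, 2 and 3 (log2), was set against the other 5000 genes above background. The closest by root mean square distance over the 3 pools were Hspa5, an endoplasmic reticulum chaperone, at 0.014, Celf4, an RNA-binding protein, at 0.016 and Cdr2 at 0.017. Their signals in replicates 1, 2 and 3 were 2313, 3099 and 2038 for Hspa5, 2136, 2940 and 1881 for Celf4 and 1382, 1912 and 1253 for Cdr2. With 3 pools such closeness is common, and 187 genes lay within 0.1 of the profile.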

How the data were processed

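The deposited table gives 1 linear intensity for each of 12488 probe sets on each of 3 arrays, with 2% trimmed means between 500.2 and 500.3. The steps by which the authors obtained these intensities are not given in the sources used here, and the number of arrays limits precision. Here each array was multiplied by 1 factor that equalised its 2% trimmed mean, taken on the 12422 non-control probe sets. For log2 values alone, an array's signals were floored at its 5th percentile. Genes with more than 1 probe set were represented by a plain-suffix one, then by the highest mean. The platform annotation gave 10833 probe sets 1 symbol, 396 several and 1193 none, and 8241 of 8251 genes matched the GRCm38.p6 gene table. Scaling and ranges were tested on simulated data, which checks the computation alone.

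The members and gene lists were chosen with earlier results of these data known. The text names all members, the first 6 measured genes of the partner, activation and relative lists and any of these with a range of 2-fold or more, the first 2 measured of each marker list where values are given, and the 3 genes nearest to the median profile. Genes named beyond this rule were Gnat2, Gnb3, Gngt2 and Cnga3, which complete the cone list, and Crygb, Crygs and Sncg. All were chosen after their values were seen. Alternatives covered scaling, floor, limit, probe set, range threshold and each sample left out. Work used Python 3.11.15, numpy 2.4.6, pandas 2.3.3 and matplotlib 3.10.9.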

Additional observations from a re-analysis of the deposited data

How the results depend on the processing

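No paired analysis was possible because the labels give 1 group. The count of genes above background on all 3 arrays stayed at 6 in 10 of 11 alternatives and was 5 when the limit was the 40th percentile of the array. The count with a range of 2-fold or more, 2 as reported, was 4 with a common median (34.2% of all genes), 1 after quantile normalization (25.5%), 6 at a threshold of 1.5-fold (60.7%), 0 at 3-fold (7.97%), and between 0 and 2 with 1 replicate left out, at 0 without replicate 1 and 1 without replicate 2. The median deviation of the 6 genes from the other samples, -0.12, 0.55 and -0.38 (log2) in replicates 1, 2 and 3, became 0.14 in replicate 1 and 0.06 in replicate 2 after quantile normalization, and 0.12 and 0.07 when scaled to the hybridisation controls, both turning the sign in replicate 1. The medians of all genes above background in replicates 1 and 2 moved too. They were 0.06 and -0.01 as reported, -0.0 and 0.06 after quantile normalization, and 0.31 and -0.49 under the hybridisation controls. Under those controls the 6 genes thus stayed below all genes in replicate 1 and above them in replicate 2, as in the main scaling. With 1 sample left out the median deviation of the 6 genes lay between -0.44 and 0.09 in replicate 1 (0.09 without replicate 2), between 0.44 and 0.55 in replicate 2 and between -0.55 and -0.09 in replicate 3. Quantile normalization equalises the arrays at every level by construction. Scaling to the hybridisation controls multiplies each array by 1 factor, which moved the median signal of all probe sets by 0.16, -0.32 and 0.16 (log2) in replicates 1, 2 and 3. The cause of the differences between the pools was not tested. Of 66 values of single-gene range under the alternatives, 54 moved by less than the SD between pools, and of 66 mean log2 signals 65 did. Low signal limits Rgs9 and the second Pdc probe set most.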

Other observations

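Among the relatives of Gucy2e, the receptor guanylyl cyclase Gucy2c, best known from the intestine, had probe sets that disagreed. At the one used its signals were 634, 44.1 and 33.2 in replicates 1, 2 and 3, above background in replicate 1 alone and at least 5.92-fold higher there than in replicate 3. At the other it had 138, 73.1 and 51.5, below background on every array. Gucy2c was chosen after its values were seen.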
